A study of Arabidopsis thaliana with 6 samples.

Results

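Root hair genes and extensins were compared between wild-type Arabidopsis thaliana seedlings and seedlings of the hy5 mutant. The group was given as 47 named loci, which cover factors of root hair fate and growth, root-hair-specific (RHS) genes, leucine-rich repeat extensins (LRX), proline-rich proteins (PRP) and extensins. Of these, 45 were found by locus identifier among the 26984 genes of the deposited tables. AT1G12950 (RHS2) and AT5G49080 (EXT11) were not analysed here. The wild type was the accession Col_0 and the mutant carried the single allele hy5-215. Both were harvested as whole seedlings at 7 days of age, grown in short days, at zeitgeber time (ZT, hours after dawn) 20 h. There were 3 RNA-seq libraries per genotype, numbered 1 to 3 for wild type and 4 to 6 for hy5. HY5 is a basic leucine zipper transcription factor of the light response that binds DNA elements with an ACGT core, and it also acts in roots.

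A root hair is a tubular outgrowth of an epidermal cell of the root. In epidermal files fated not to bear hairs, a MYB complex with WEREWOLF (WER) switches on GLABRA2 (GL2), a homeodomain factor that represses hair genes. In hair files, the small MYB protein CAPRICE (CPC) keeps GL2 off, and the basic helix-loop-helix (bHLH) factors RHD6, RSL4 and RSL2 start and sustain hair growth. The growing tip is then built from reactive oxygen, lipid and kinase signalling together with wall proteins, of which extensins are the most repetitive. Extensins are hydroxyproline-rich rods made of a serine followed by a run of prolines, interspersed with tyrosines through which the rods can be cross-linked by peroxidases. Several of the fate factors, GL2 and WER's relative MYB23 among them, also act in leaf trichomes.

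The repeat that defines an extensin can be read in its coding sequence, and it is shown because the group is named for it. A run was counted as a TCN codon for serine followed by 4 CCN codons for proline in frame (coding strand, without overlap; serine codons that start with AG were not counted). At least 10 such runs were found in 24 of 27444 protein-coding genes (0.0875%), and 15 of the 16 extensins of the group were among them. LRX1 (14 runs) and LRX2 (11 runs) were among them too. Of the extensins, AT3G28550 had the most, 70 runs, and EXT4 the fewest, 9. The 90 in-frame bases with the most runs are given for EXT13, which fell most, and for the abundant EXT3 and EXT4, of which EXT3 fell and EXT4 did not pass, with the runs in capitals (RefSeq TAIR10.1, 5′ to 3′ on the coding strand).
EXT13 at chr5:13434421-13434510, plus strand: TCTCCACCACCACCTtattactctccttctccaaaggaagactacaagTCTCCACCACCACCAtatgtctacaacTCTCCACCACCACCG
EXT3 at chr1:7454809-7454898, minus strand: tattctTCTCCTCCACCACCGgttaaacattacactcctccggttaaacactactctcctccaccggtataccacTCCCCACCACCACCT
EXT4 at chr1:28896539-28896628, minus strand: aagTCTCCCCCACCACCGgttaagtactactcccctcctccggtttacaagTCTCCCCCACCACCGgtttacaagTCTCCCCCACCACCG

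The 250 bases before the annotated gene start were searched on both strands for the G-box CACGTG, for the bare core ACGT, and for the root hair element (RHE), a published consensus of root hair promoters. CACGTG was in none of the 45 windows, against 6.47% of 26983 windows over all genes. ACGT was in 30 of 45 (66.7%) and in 44.0% of all windows. The RHE was in 7 of 45 (15.6%) and in 0.760% of all windows. Those with it were ROPGEF4, RHS18, RHS13, G3Pp2, LRX1, PRP1 and PRP3. The RHS genes were originally picked in part by this element, so its frequency among them is not independent. No extensin held it.

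The hexamer GCACGT, chosen after the windows of EXT13 and EXT12 had been seen, overlaps both ACGT and the core of the RHE. It was in 19 of 45 windows of the group (42.2%) and in 3.49% of all windows. The 19 were 10 of 16 extensins (62.5%) and 9 of the 29 other members, namely RHD2, MRH1, PIP5K3, ROPGEF4, PERK13, SHV2, RHS18, G3Pp2 and LRX1. In each of the 10 extensins it read forward, starting between 143 and 86 bases before the gene start (-143 to -86). The 10 stretches of 40 bases are aligned on the hexamer, which is in capitals.
EXT13 at chr5:13433992-13434031, plus strand: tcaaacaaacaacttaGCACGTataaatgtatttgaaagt
EXT10 at chr5:2042005-2042044, minus strand: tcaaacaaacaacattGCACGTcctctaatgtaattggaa
AT5G06630 at chr5:2037927-2037966, minus strand: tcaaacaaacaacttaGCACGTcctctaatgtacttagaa
AT3G54580 at chr3:20203982-20204021, minus strand: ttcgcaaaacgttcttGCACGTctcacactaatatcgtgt
HRGP1 at chr3:20206000-20206039, plus strand: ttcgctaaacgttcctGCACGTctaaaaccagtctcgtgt
EXT6 at chr2:10622285-10622324, plus strand: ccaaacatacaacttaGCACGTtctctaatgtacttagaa
AT3G28550 at chr3:10704088-10704127, minus strand: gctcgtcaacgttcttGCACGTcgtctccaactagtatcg
AT4G08400 at chr4:5325462-5325501, minus strand: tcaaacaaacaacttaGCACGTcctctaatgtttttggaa
AT4G08410 at chr4:5341276-5341315, minus strand: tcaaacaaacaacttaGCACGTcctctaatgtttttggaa
EXT12 at chr4:7783670-7783709, plus strand: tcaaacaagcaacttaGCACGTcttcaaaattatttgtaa

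In 6 of the 10 the hexamer ended the longer stretch CAACTTAGCACGT. It was defined as the longest stretch ending in the hexamer that the windows of EXT13 and EXT12 share, so both hold it by construction. This stretch, fitted to these genes, occurred in 6 of 26983 windows on either strand, all of them these extensins. EXT10, AT3G54580, HRGP1 and AT3G28550 held the hexamer without it. The window of EXT13, the member with the largest fall, and that of PRP1, the largest outside the extensins, are given in full. Capitals mark the hexamer in EXT13 and the RHE, on the opposite strand, in PRP1.
EXT13 at chr5:13433901-13434150, plus strand: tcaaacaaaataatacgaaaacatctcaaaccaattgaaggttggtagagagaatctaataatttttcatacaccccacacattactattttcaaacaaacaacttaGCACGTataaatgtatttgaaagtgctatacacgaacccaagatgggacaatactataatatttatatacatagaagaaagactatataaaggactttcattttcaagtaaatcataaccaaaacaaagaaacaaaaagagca
PRP1 at chr1:20504651-20504900, plus strand: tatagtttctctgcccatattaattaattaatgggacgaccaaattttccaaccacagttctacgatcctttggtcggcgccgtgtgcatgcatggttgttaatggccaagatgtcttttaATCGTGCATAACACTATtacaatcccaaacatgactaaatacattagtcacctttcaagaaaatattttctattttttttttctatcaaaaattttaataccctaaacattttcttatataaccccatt

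Expression values were FPKM, fragments scaled by gene length and library size, a scale on which levels can be compared between genes. Sums per library lay between 528554 and 556418 FPKM, and 16859 to 17123 genes reached 1 FPKM. The first principal component (66.5% of variance) separated the genotypes, and the second (14.2%) set wild type 3 (-24.7) apart from wild type 2 (16.7). This matters for the members: 27 of the 44 with a wild-type mean above 0 had their highest value in wild type 3. The share of all genes highest in that library was not computed. Counts are therefore also given without that library. HY5 itself measured 13.4, 13.0 and 13.9 FPKM in the wild-type libraries and 3.04, 1.88 and 3.02 FPKM in the mutant ones (limma adjusted p = 5.4e-07). Its close homolog HYH ranged from 23.3 to 26.3 FPKM and from 2.08 to 3.49 FPKM. Nothing in the labels states that libraries came from separate plantings. A p-value here therefore sets the genotype difference against the spread between libraries, which may be technical.

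Of 18 extensin, LRX and PRP members tested, 12 fell in hy5. Joining these classes was not planned, and of the 21 tested members other than extensins, 7 fell. These 21 include the 5 LRX and PRP members, of which 3 fell. No member of the group was higher past the threshold or at an unadjusted p under 0.05 (limma). Of 34 members that passed the expression filter (at least 1 FPKM in at least 3 libraries), 16 fell at a limma adjusted p under 0.05, adjusted over 17205 genes, and 18 did not pass. Over all tested genes 22.8% passed, 11.1% lower and 11.7% higher. The 16 were 9 extensins, PRP1, PRP3, LRX1, GL2, the peroxidase gene RHS18 and the receptor kinase genes PERK13 and RHS16. Whole seedlings mix organs and cell types. A changed share of the cells that express a gene and a changed RNA level per cell cannot be told apart in these values. The hy5 means of the 16 were 19.7% to 61.1% of the wild-type means. RHS16 entered the test only through its wild-type libraries, and without it the count was 15 of 33. The median log2 fold change of FPKM + 1, hy5 over wild type, was -0.45 over the 34 members and -0.00094 over all tested genes. Every hy5 library lay below every wild-type library for 19 of the 34, against 19.5% of tested genes. Without wild type 3 the count was 15 lower and 1 higher.

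**Figure D1:**
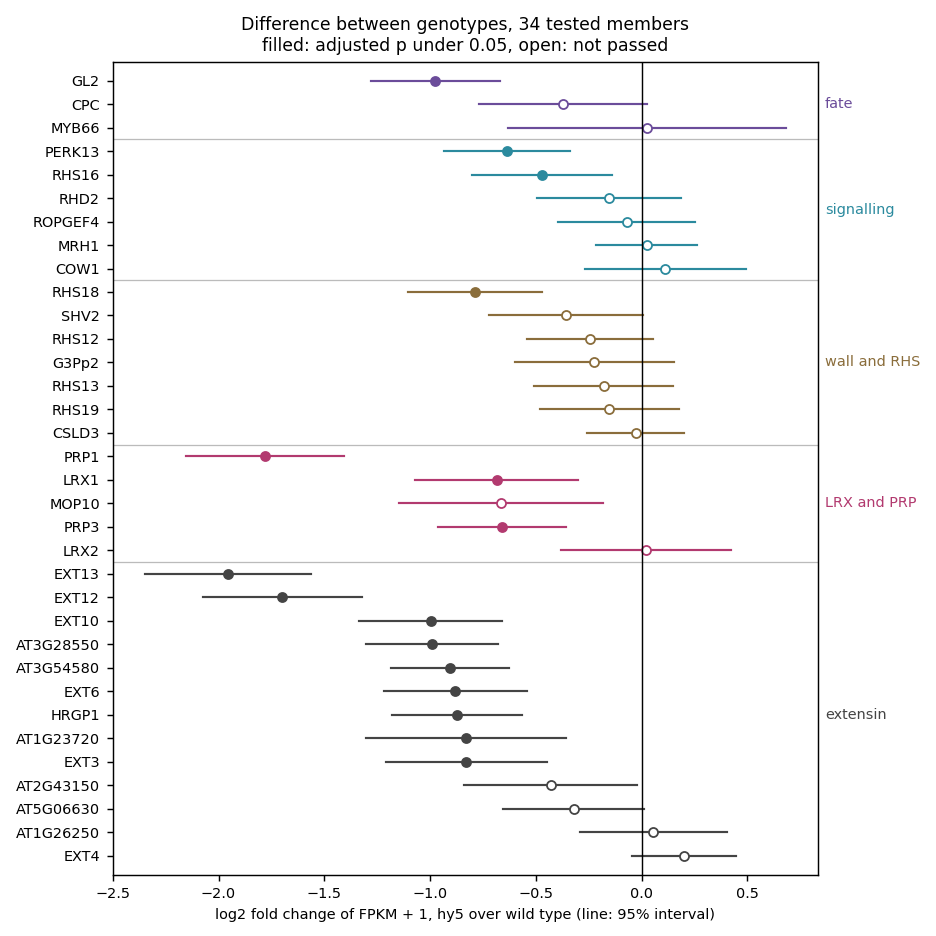
Log2 fold change of FPKM + 1 (hy5 over wild type, x axis) for the 34 tested members, grouped by role, with the 95% interval of each limma estimate as a line. Filled points passed an adjusted p of 0.05: all 16 lie below 0, and 9 of them are extensins.

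A further 11 members were below the filter. Of the 10 that were above 0 in every library, 4 (RSL4, RHS8, AT4G08400 and AT4G08410) were lower in every hy5 library than in any wild-type library, against 14.6% of such genes. RHS17, a member of the O-fucosyltransferase family, lay the other way in all libraries (0.266 to 0.646 FPKM in wild type and 0.708 to 0.804 FPKM in hy5), against 10.7%. When all genes with any reads were tested, 19 members were lower, where 8.15% of 22416 genes were. The 3 gained were RSL4, AT4G08400 and AT4G08410, and RHS17 did not pass (limma adjusted p = 0.17). AT4G08400 and AT4G08410 can share reads, as described below, so their values may not be independent.

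Among the fate factors, GL2 fell and its activator WER did not pass. GL2 values were 2.68, 2.40 and 3.20 FPKM for wild type 1, 2 and 3, against 0.813, 0.901 and 1.005 FPKM for hy5 4, 5 and 6. The groups do not overlap, and the hy5 mean was 32.9% of wild type (limma log2 fold change -0.97 with SE 0.14, adjusted p = 0.00035). WER, listed as MYB66, was uneven within both genotypes, at 2.16, 0.429 and 1.25 FPKM against 0.917, 2.07 and 0.816 FPKM. Its 95% interval ran from -0.63 to 0.68 on the log2 scale, so these libraries set no useful limit on a change. CPC had 2.74, 2.61 and 1.58 FPKM in wild type and 0.986, 1.92 and 1.77 FPKM in hy5, overlapping groups that did not pass (limma adjusted p = 0.17).

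The bHLH factors were all near or below 1 FPKM. RHD6, which licenses hair initiation, had 1.05, 0.829 and 0.793 FPKM in wild type and 1.005, 0.960 and 0.870 FPKM in hy5, fully overlapping ranges. RSL4, whose level is known to set final hair length, had 1.09, 0.709 and 0.783 FPKM against 0.308, 0.312 and 0.413 FPKM. Every hy5 library lay below every wild-type one, and the hy5 mean was 40.0% of wild type (limma adjusted p = 0.017 when no filter was used). RSL2, its close relative, had 0.776, 0.436 and 0.745 FPKM against 0.636, 0.320 and 0.609 FPKM, which overlap. At such levels an FPKM value rests on few fragments, and their number is not known.

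**Figure D2:**
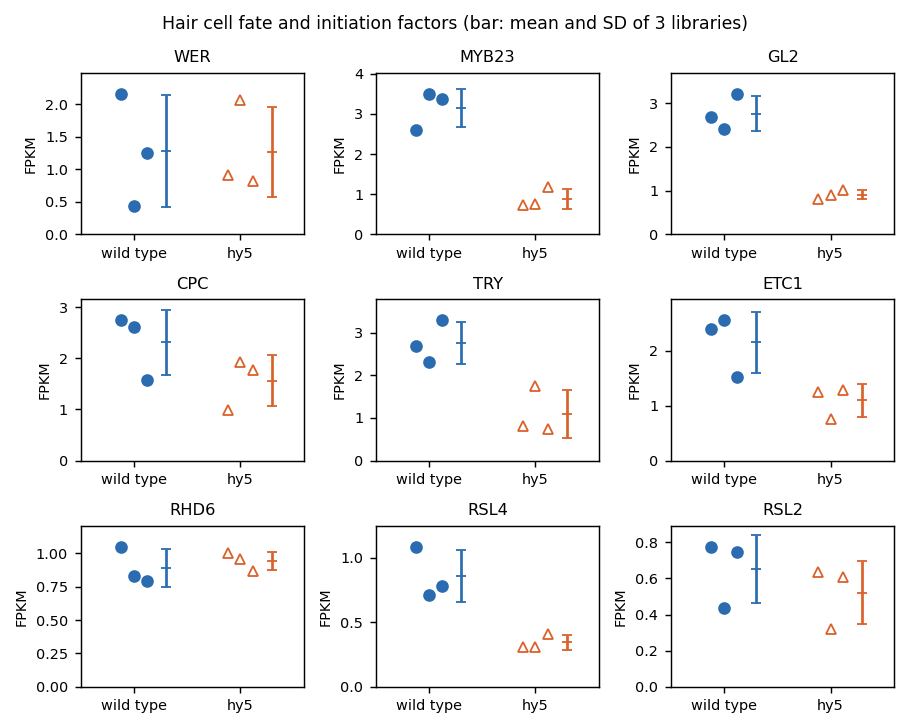
FPKM per library (y axis, from 0) of 9 hair cell fate and initiation factors in wild type (filled circles) and hy5 (open triangles), with the mean and SD of 3 libraries beside them. GL2, MYB23, TRY, ETC1 and RSL4 do not overlap between genotypes, whereas WER, CPC, RHD6 and RSL2 do.

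The signalling genes of the growing tip mostly did not pass. RHD2 encodes the NADPH oxidase (RBOHC) that makes reactive oxygen at the tip, and its values were 1.44 to 2.33 FPKM in wild type and 1.31 to 1.93 FPKM in hy5. COW1, a Sec14-like lipid transfer protein, the receptor-like kinase MRH1 and ROPGEF4, an activator of ROP GTPases, also overlapped between genotypes. MRH1 was the most abundant of them and the most tightly bounded, at 7.12 ± 0.0875 against 7.26 ± 0.459 FPKM (SD, n = 3 each), with a 95% interval of -0.22 to 0.26 on the log2 scale. The phosphatidylinositol phosphate kinase gene PIP5K3, the AGC kinase gene IRE and the receptor kinase gene RHS6 reached at most 0.466 FPKM and were not tested.

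Both signalling genes that fell encode receptor-like kinases. PERK13 (RHS10), a proline-rich extensin-like receptor kinase known to restrain hair elongation, had 1.80, 2.18 and 2.03 FPKM in wild type and 1.01, 0.803 and 0.989 FPKM in hy5 (limma log2 fold change -0.63 with SE 0.14, adjusted p = 0.0053). Its groups stand clear of each other. RHS16 had 1.64, 1.11 and 1.56 FPKM against 0.930, 0.541 and 0.809 FPKM (limma adjusted p = 0.042). That call was lost without hy5 4 (0.063), hy5 5 (0.14) or hy5 6 (0.10), and RHS16 was below the filter without any 1 wild-type library.

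Enzymes and other RHS proteins of the wall split in the same way. RHS18, a class III peroxidase, had 4.06, 3.94 and 4.95 FPKM in wild type and 2.50, 1.67 and 2.11 FPKM in hy5 (limma log2 fold change -0.79 with SE 0.15, adjusted p = 0.0021). The other peroxidase of the group, RHS19, had 6.70 to 7.89 FPKM against 4.84 to 8.09 FPKM and did not pass. CSLD3, the cellulose synthase-like protein KOJAK that hairs need to keep an intact wall, had 12.8, 12.8 and 15.5 FPKM against 12.8, 13.6 and 13.7 FPKM. Its 95% interval was -0.26 to 0.20 on the log2 scale. RHS13 (12.0 to 16.6 FPKM against 9.56 to 14.3 FPKM), the glycerol-3-phosphate transporter family gene G3Pp2 and the COBRA-like gene SHV2 (COBL9) overlapped too. SHV2 passed as lower without wild type 2 (limma adjusted p = 0.039).

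RHS12, a pectin methylesterase gene, was lower in each hy5 library (1.16 to 1.24 FPKM) than in any wild-type library (1.45 to 1.88 FPKM), yet did not pass (limma adjusted p = 0.22). The xyloglucan galacturonosyltransferase gene RHS8, below the filter, had 0.526 to 0.783 FPKM in wild type and 0.307 to 0.464 FPKM in hy5.

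Proline-rich proteins gave the second-largest fall of the group. PRP1 had 6.60, 8.40 and 8.36 FPKM in wild type 1, 2 and 3 and 2.18, 0.952 and 1.65 FPKM in hy5 4, 5 and 6. No value of one genotype came near the other, and the hy5 mean was 20.5% of wild type (limma log2 fold change -1.78 with SE 0.17, adjusted p = 1.2e-05). PRP3, a related root hair wall protein, was more abundant, at 23.2, 22.1 and 32.9 FPKM against 16.5, 14.0 and 17.3 FPKM (limma log2 fold change -0.66 with SE 0.14, adjusted p = 0.0053). MOP10, a small proline-rich-like protein gene, had 8.18, 7.02 and 14.0 FPKM against 5.12, 4.71 and 6.91 FPKM. Its groups do not overlap by a narrow margin, and it just missed the threshold (limma adjusted p = 0.051). With a pseudocount of 0.1 it passed (0.048), as it did with a filter at 5 FPKM (0.047) and without wild type 2 (0.012) or hy5 6 (0.041).

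Of the LRX pair, LRX1 passed and LRX2 did not. LRX1 and LRX2 are chimeric proteins with a leucine-rich repeat domain and an extensin tail that act together in hair wall assembly. LRX1 had 3.89, 4.74 and 7.29 FPKM in wild type and 2.63, 2.55 and 3.35 FPKM in hy5 (limma log2 fold change -0.68 with SE 0.18, adjusted p = 0.015), which failed without hy5 4 (0.055) or hy5 5 (0.057). LRX2 had 2.43, 1.90 and 3.79 FPKM against 2.17, 2.60 and 3.36 FPKM, with full overlap and an interval of -0.38 to 0.42. The difference between the 2 genes' changes was not tested.

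Extensins covered the widest range of levels in the group. In wild type AT2G43150 (298.2 FPKM), EXT3 (236.1) and EXT4 (155.5) ranked 1 to 3 among the members, with spreads that overlap, and AT3G28550 (39.6) came next. At the other end AT1G26240 was listed at 0 in every library except hy5 5 (0.0545 FPKM). Of the 13 extensins tested, 9 fell and 4 did not pass, with a median log2 fold change of -0.87. Summed over the 16 extensins, the level was 708.2, 717.8 and 1106 FPKM in wild type and 603.3, 581.2 and 592.8 FPKM in hy5. Wild type 3 stands far above the other two wild-type libraries in this sum, which the 3 most abundant genes dominate.

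Within the extensins, EXT13 and EXT12 had the largest falls. EXT13 had 10.3, 11.5 and 17.0 FPKM in wild type and 2.36, 2.002 and 3.27 FPKM in hy5, so its hy5 mean was 19.7% of wild type (limma log2 fold change -1.96 with SE 0.18, adjusted p = 1.3e-05). EXT12 had 5.87, 9.30 and 9.48 FPKM against 2.19, 1.37 and 1.87 FPKM, or 22.0% (limma log2 fold change -1.70 with SE 0.18, adjusted p = 1.9e-05). In both, the lowest wild-type library was more than any hy5 library by a wide margin. Without wild type 3 the log2 fold changes were -1.76 and -1.59.

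The next 5 extensins stood at 41.7% to 51.1% of wild type. EXT10 had 4.86, 6.80 and 7.69 FPKM in wild type and 2.97, 2.34 and 2.76 FPKM in hy5 (limma adjusted p = 0.00060). EXT6 had 3.78, 5.48 and 5.94 FPKM against 2.47, 1.95 and 2.36 FPKM (limma adjusted p = 0.0016). Neither gene's groups overlap, and the hy5 values are tighter than the wild-type ones. AT3G28550 had 32.1, 36.3 and 50.4 FPKM against 19.2, 20.8 and 17.4 FPKM (limma adjusted p = 0.00055). AT3G54580 had 21.1, 25.3 and 32.1 FPKM against 14.0, 12.6 and 13.4 FPKM (limma adjusted p = 0.00030). Its neighbour HRGP1, 2208 bases away on chromosome 3 in divergent orientation, had 13.3, 16.4 and 21.3 FPKM against 8.66, 8.03 and 9.33 FPKM (limma adjusted p = 0.00084). Wild type 3 was the highest library for each of these 5 genes.

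**Figure D3:**
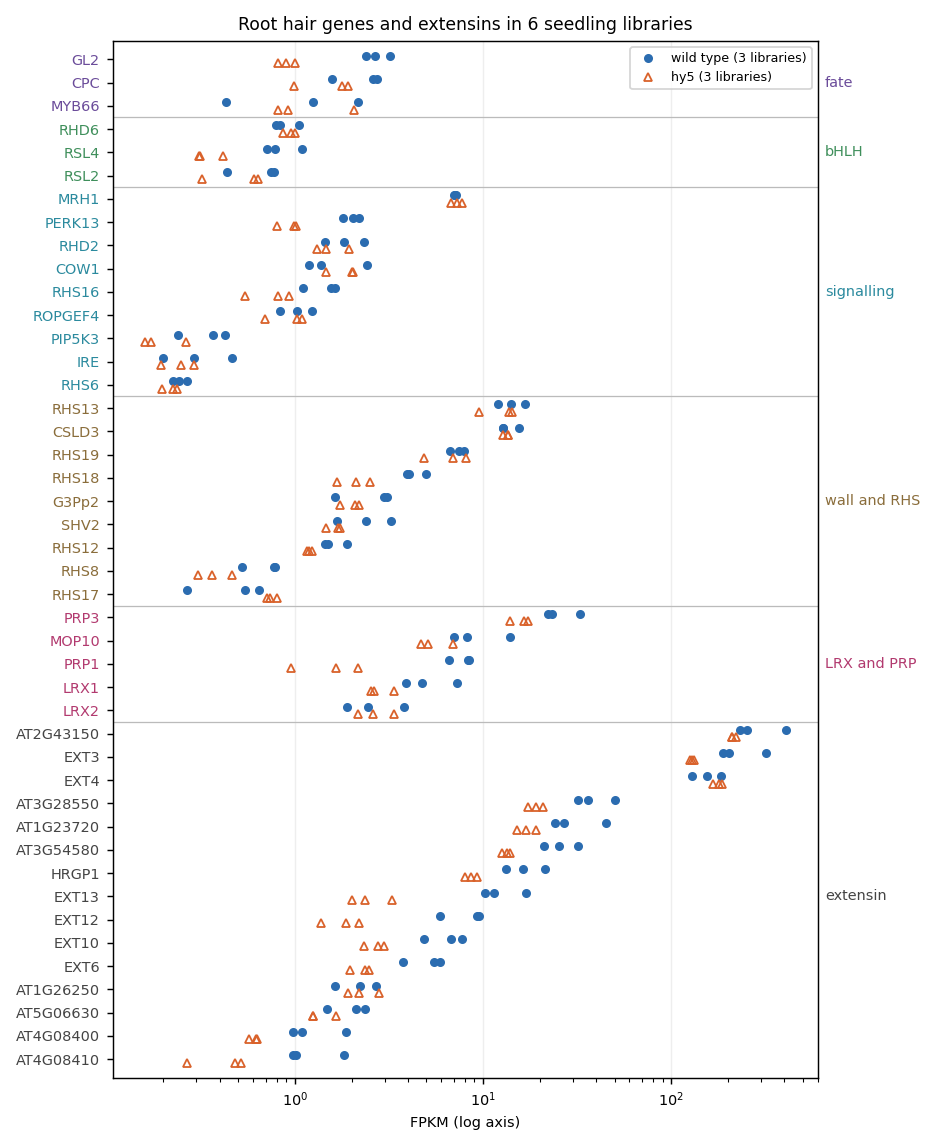
FPKM per library (x axis, log scale) of the 44 members above 0 in every library, ordered by role and by wild-type level, with wild type as filled circles and hy5 as open triangles. The extensins span from under 1 to 407.0 FPKM, and EXT13, EXT12 and PRP1 show the widest gaps between genotypes.

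Abundant extensins were less uniform. EXT3, a scaffold protein needed for wall assembly in the embryo, had 201.8, 188.3 and 318.2 FPKM in wild type and 129.0, 132.0 and 125.2 FPKM in hy5 (limma log2 fold change -0.83 with SE 0.17, adjusted p = 0.0075). EXT4, which is not confined to root hairs, had 128.7, 154.3 and 183.4 FPKM against 179.2, 166.2 and 186.0 FPKM, and did not pass (log2 fold change 0.20, 95% interval -0.05 to 0.45). Without wild type 3 it was higher in hy5 (log2 fold change 0.33, limma adjusted p = 0.033). AT2G43150 had 254.2, 233.6 and 407.0 FPKM against 221.5, 209.9 and 211.7 FPKM, a difference that did not pass (limma adjusted p = 0.12) except without wild type 2 (0.023). Its log2 fold change of -0.43 was -0.18 without wild type 3. AT1G23720 had 27.1, 24.2 and 45.2 FPKM against 16.9, 19.1 and 15.1 FPKM (limma adjusted p = 0.021), which failed without hy5 4 or hy5 6 (0.090 each).

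Some extensins can share reads. A window of 50 coding bases was called shared where the transcript of another gene held it on either strand. The tandem neighbours AT4G08400 and AT4G08410 had 62.2% and 48.0% of windows shared, nearly all with each other, so their division is uncertain. Taken singly and not summed, their values ran from 0.972 to 1.88 FPKM in wild type and from 0.266 to 0.627 FPKM in hy5. AT1G26250 (83.9%), EXT3 (32.6%) and EXT10 (26.5%) shared windows almost only with gene models annotated on the opposite strand of the same place, and the sources used here do not say whether counting used strand. In the other 11 extensins the share was under 5%. AT1G26250, at 1.64 to 2.71 against 1.92 to 2.79 FPKM, and AT5G06630, at 1.49 to 2.36 against 1.25 to 1.65 FPKM, did not pass.

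Set beside the upstream hexamer, the extensins divided as follows. Of the 10 with it, 8 were tested and 7 fell, where 11.1% of all tested genes did. The exception was AT5G06630, and the remaining AT4G08400 and AT4G08410 were lower in each hy5 library. Their sum was 94.7, 115.2 and 149.9 FPKM in wild type and 54.6, 51.1 and 52.8 FPKM in hy5, or 44.0% of wild type. Of the 6 without it, 5 were tested and AT1G23720 and EXT3 fell. Their sum was 613.4, 602.6 and 956.5 FPKM against 548.8, 530.1 and 540.1 FPKM, or 74.5%. AT2G43150, EXT3 and EXT4 dominate this sum, and their hy5 means were 71.9%, 54.5% and 113.9% of wild type. Wild type 3 stands far above the other wild-type libraries in it, so the 74.5% rests largely on that library. Of the 9 other members with the hexamer, 8 were tested, PERK13, RHS18 and LRX1 fell, and RHD2, MRH1, ROPGEF4, SHV2 and G3Pp2 did not pass. The division was made after the values were known, and the difference between the groups was not tested. The hexamer was chosen after the windows of EXT13 and EXT12 had been seen. These extensins had the largest falls, so the group with the hexamer holds them by construction. PRP1, which fell as far, has no ACGT in its window.

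Among 45 further root hair genes that are not in the group, those tested showed no common direction. Of 36 tested, 4 rose and 7 fell, where 11.7% and 11.1% of all tested genes did. The median log2 fold change was -0.0075. Those that fell included the single-repeat MYB genes TRY (2.69, 2.30 and 3.29 FPKM against 0.807, 1.75 and 0.743 FPKM) and ETC1, which act with CPC. MYB23, which reinforces the non-hair fate, fell from 3.15 ± 0.480 to 0.890 ± 0.250 FPKM (SD, n = 3 each, limma adjusted p = 0.00019). SUB, also called SCRAMBLED, a receptor-like kinase that positions the 2 cell types, fell from 12.9 ± 0.669 to 7.25 ± 0.881 FPKM (limma adjusted p = 0.00049). The expansin gene EXPA18, the peroxidase gene AT4G26010 (PRX44) and the receptor kinase gene AT5G61350 (ERULUS) fell as well. The ETC1 call was lost without wild type 1 (0.081), wild type 2 (0.084) or hy5 5 (0.10). EXPA18 (0.047) lost its call with no filter (0.076), with either rescaling (0.050 and 0.060), with a pseudocount of 0.1 (0.050) and without any library except wild type 2 (0.064 to 0.15). AT4G26010 (0.021) lost its call without wild type 3 (0.067) or hy5 5 (0.085). That of AT5G61350 (0.025) depended on wild type 1 (0.079 when it was left out) and on each hy5 library (0.063 to 0.10).

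The genes of that list that rose were JKD, FER, GTL1 and RALFL22. JKD, a zinc finger factor of the ground tissue that acts upstream of epidermal patterning, rose from 16.5 ± 0.560 to 24.6 ± 1.59 FPKM (SD, n = 3 each, limma adjusted p = 0.0011). GTL1, a trihelix repressor of hair growth that acts on RSL4, rose from 29.5 ± 5.22 to 42.1 ± 2.24 FPKM (limma adjusted p = 0.0071). FER, the receptor kinase FERONIA, rose to 126.2% and RALFL22, which encodes a small peptide of the RALF family, to 148.4% of wild type. The FER call was lost without hy5 4 (0.071) or hy5 6 (0.055). The other 25 tested did not pass, among them the actin gene ACT2 (607.8 to 718.5 FPKM in wild type and 650.8 to 683.3 FPKM in hy5). Of the 9 below the filter, GL3, RSL1, AT2G14760 (RSL3) and MRH6 were lower in every hy5 library than in any wild-type library. None lay the other way. Of all genes below the filter and above 0 in every library, 14.6% were lower in this way.

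Relatives of the LRX and PRP members that are not specific to root hairs included none that passed as lower. Of 11 listed, 7 were tested and only PRP2 passed, whereas 2 were higher and none lower at an unadjusted p under 0.05 (limma). PRP2 rose from 56.9 ± 6.56 to 79.6 ± 13.0 FPKM (SD, n = 3 each, limma adjusted p = 0.014). That call was lost without wild type 1 (0.057) or hy5 6 (0.075). Without wild type 1, no relative was higher and 3 (LRX3, AT3G24480 and AT4G18670, which act in vegetative cell walls) were lower. AT2G15880 (PEX3) was higher in every hy5 library, at 179.5% of wild type, and passed only after quantile normalization (0.049) and without hy5 5 (0.0029). AT3G22800 (LRX6) passed as higher without wild type 3 (0.018).

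Markers of other root tissues that were higher came mainly from the endodermal wall barrier. Of 21 listed, 15 were tested, 10 rose and none fell by limma, where 11.7% of all tested genes rose. Of the 10, 8 were genes of that barrier. The cortex marker AT1G09750 was lower at an unadjusted p under 0.05, and it passed after quantile normalization (adjusted p = 0.049) and without wild type 1 (0.014). All 8 markers of the endodermal wall barrier rose: the Casparian strip genes CASP1 to CASP5, their regulator MYB36, ESB1 and the peroxidase gene PER64. Setting these 8 apart within the list was not planned. Their sum was 96.5, 75.6 and 117.8 FPKM in wild type and 215.4, 181.2 and 205.8 FPKM in hy5. SKOR, a potassium channel gene of the stele, and SHR rose as well. SCR (89.4% of wild type), PHO1 (104.6%), HKT1 (88.9%) and EIR1 (PIN2, 87.2%), an auxin carrier of root epidermis and cortex, did not pass. The root cap and root meristem markers SMB, NAC015, NAC070, PLT1, PLT2 and WOX5 were too low to test. The part that changed proportions of root tissues have in the members' values was not tested. The CASP4 call was lost with either rescaling (0.056 and 0.054) and without wild type 1, wild type 2, hy5 4 or hy5 6, and the SHR call without each library except wild type 3 (0.092 to 0.15).

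**Figure D4:**
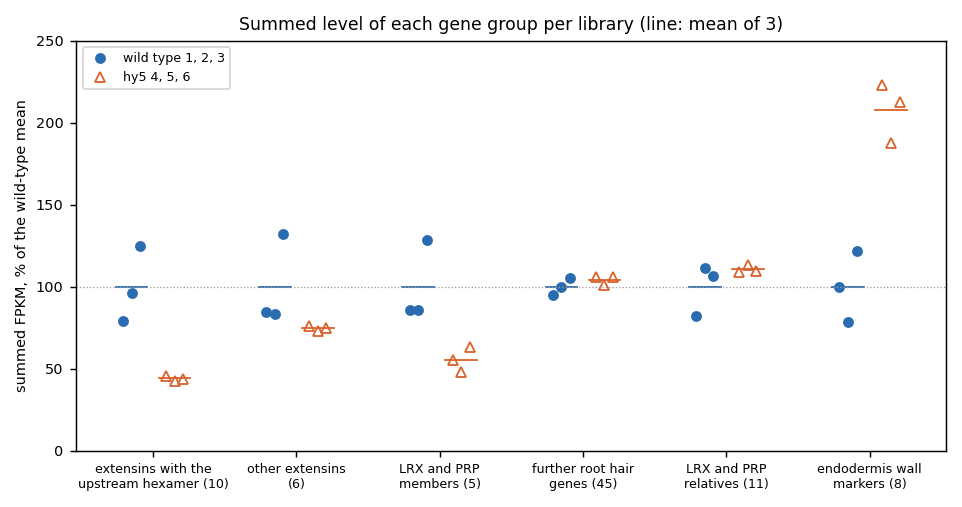
Summed FPKM of 6 gene groups in each library as a percentage of the wild-type mean (y axis), with wild type as filled circles, hy5 as open triangles and lines for the means of 3 libraries. The hy5 means are 44.0% for extensins with the upstream hexamer and 74.5% for the other extensins. They are 55.5% for LRX and PRP members and 207.7% for endodermis wall markers. The hexamer was chosen after the windows of EXT13 and EXT12, the extensins that fell most, had been seen. AT2G43150, EXT3 and EXT4 dominate the sum of the other extensins, which is highest in wild type 3.

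Genes of leaf trichomes, where GL2, MYB23 and TRY also act, were checked for the same reason. Of 12 listed, 8 were tested. MYB106, a MYB factor of trichome branching, fell from 2.24, 2.12 and 1.69 FPKM to 0.462, 0.646 and 0.197 FPKM (limma adjusted p = 0.00037), though it passed the filter only through wild type and was not tested without any 1 of those libraries. The cellulose deposition gene AT5G06700 (TBR) rose. GL1, listed as MYB0, the trichome counterpart of WER, was under the filter, with 1.73, 2.06 and 0.577 FPKM in wild type and 0.289, 0.0418 and 0.0831 FPKM in hy5. With no filter, 4 of the 12 were lower (MYB0, TCL1, GIS and MYB106), where 8.15% of all genes were, and 1 was higher. TCL1 and GIS reached at most 0.543 FPKM. The direction of the list depended on the filter: the median log2 fold change was 0.13 over the tested genes and -0.086 with no filter. SIM passed as higher without wild type 3 (limma adjusted p = 0.0038). The share of the GL2 difference that comes from leaf or root was not tested.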

How the data were processed

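RNA-seq libraries of whole seedlings were grouped by genotype and numbered from their titles. The authors deposited 1 table of FPKM per library, per the file headers, so absolute read depth is unknown. For values up to 0.15 FPKM, the most common ratio to wild type 1 was 0.973 to 1.07, searched only near equal depth. Where fragment counts are equal, this ratio is the inverse of relative depth. Build TAIR10 and the tools Cufflinks, TopHat, HISAT2 2.2.1.0, Bowtie2, DESeq 1.18.0 and Trimmomatic 0.36 are in the submitters' processing notes, with no roles. Because FPKM is relative to the library's total, a shift of abundant genes moves the others.

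The 6 tables were joined by locus, and log2(FPKM + 1) was fitted with limma 3.58.1 in R 4.3.3 (a genotype term, empirical Bayes with trend and robust settings, two-sided) where 3 or more libraries reached 1 FPKM. P-values were adjusted by Benjamini-Hochberg over all 17205 such genes, with a threshold of 0.05. The script was tested on simulated data with 200 changed genes. No library pair held equal values above 0, so each counted once. Alternatives were pseudocounts of 0.1 and 5, no filter, a filter at 5 FPKM, median-ratio and quantile rescaling, and leaving out each library.

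Symbols, coordinates and sequences came from RefSeq TAIR10.1, in which all 45 loci were found. Members and lists were chosen with earlier results of these data known. Values in every library were given for WER, CPC, GL2, RHD6, RSL4, RSL2 and all members that passed, and list genes were named where they passed. Others named, such as MOP10, EXT4 and GL1, were chosen after their values were seen. Python 3.11.15, pandas 2.3.3, NumPy 2.4.6, SciPy 1.17.1 and matplotlib 3.10.9 were used.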

Additional observations from a re-analysis of the deposited data

How the results depend on the processing

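The count of members lower in hy5 was 16, and it was 16 to 19 with the other pseudocounts, no filter and both rescalings. It was 10 with a filter at 5 FPKM, which tests fewer members, and 13 to 18 when each library was left out. No member was higher except without wild type 3, where 1 (EXT4) was, so that count ran from 0 to 1. The count of all genes called was 3915, and 2028 to 4309 when each library was left out, lowest without hy5 6 (2028) and hy5 4 (2201). Calls lost for RHS16, LRX1 and AT1G23720 when a hy5 library was left out are given with these genes. When each library was left out, members that had not passed ran across 0 on the log2 scale: COW1 from -0.017 to 0.31, MRH1 from -0.015 to 0.065, ROPGEF4 from -0.14 to 0.023, CSLD3 from -0.073 to 0.058, RHS19 from -0.29 to 0.027, LRX2 from -0.14 to 0.22 and AT1G26250 from -0.074 to 0.17. MYB66 ran from -0.27 to 0.17 in the 3 fits that it entered (without wild type 2, hy5 4 or hy5 6), since it was below the filter in the others. No direction reversed under a pseudocount, filter or rescaling. No paired analysis was possible because the genotypes share no library numbers. Members under about 1 FPKM rest on few fragments.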
